A study of Mus musculus with 4 samples.

Results

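The BCL2 family sets whether a stressed lymphocyte lives or dies, and its RNA was followed here in group 2 innate lymphoid cells (ILC2s) given deoxycholic acid (DCA), a secondary bile acid made by gut bacteria. The genes are 10 rows of the deposited count table, picked by symbol out of 27179 rows in all. They are the pro-survival genes *Bcl2*, *Bcl2l1*, *Mcl1* and *Bcl2a1b*, the effectors *Bax* and *Bak1*, and the BH3-only genes *Bcl2l11*, *Bbc3*, *Pmaip1* and *Bid*. All 10 symbols were found, and 9 of them reached a mean of at least 1 CPM, a count scaled to library size, across the libraries and were tested.

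ILC2s lack antigen receptors and are known for making type 2 cytokines. They were sorted from the large intestine of wild-type C57BL/6 mice as CD45.2+ Lin- CD127+ KLRG1+ cells, and both groups were cultured for 5 days with 4 cytokines, each at 10 ng/mL, namely IL-33, IL-25, IL-7, and IL-2. One group then received vehicle and the other received 100 μM DCA, with 2 libraries in each. The design text gives 16 hours of treatment, the methods give 24 hours, and neither states whether replicates came from separate mice, so p-values measure the spread between these libraries, which may be technical.

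Total counts were between 26564059 and 35838342 in 3 libraries and 244165712 in DCA replicate 2. Each library held between 14359 and 148521 counts on the 10 genes, or 0.0541% to 0.0746% of its total. All 10 ILC2 markers, *Gata3* and *Il1rl1* among them, were above 1 CPM on average. Their summed level, most of it *Il5*, was 13954 to 18330 CPM. *Klrg1*, *Il1rl1*, and *Areg* were lower in both DCA libraries, *Il7r* and *Il5* were higher in both, and the rest overlapped between treatments. Such separation was common, upward for 18.6% and downward for 14.7% of the 11184 genes tested. None of the 11184, these markers included, passed edgeR's test after adjustment. The paper reports no change in *Il5*, *Il13*, or *Areg* transcription with DCA. Of the 6 T cell markers only *Cd3g* was above 1 CPM on average, and *Cd4* and *Cd8a* had no counts. *Cd79b* was the only such gene of 4 for B cells, none of the 4 for ILC3s was, and 2 of 5 were for epithelial cells and 2 of 5 for mast cells and basophils, with *Kit* leading the last. The 5 macrophage and monocyte markers together were at 23.998 to 24.7 CPM with vehicle and at 7.31 to 10.2 CPM with DCA. Nearly all of that was *Cd68*, and *Lyz2*, *Csf1r*, *Adgre1*, and *Itgam* had at most 10 counts in any library.

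In lymphocytes, BCL2, BCL-XL (from *Bcl2l1*), MCL1, and A1 (from the *Bcl2a1* genes) hold death signals in check at the mitochondrion. BAX and BAK form pores in the mitochondrial outer membrane once released, and the BH3-only proteins BIM (from *Bcl2l11*), PUMA (from *Bbc3*), NOXA (from *Pmaip1*), and BID release them, by blocking the pro-survival proteins or by acting on BAX and BAK directly. IL-2 and IL-7, both present in this culture, are known to keep lymphocytes alive in part through this family. Much of the control is on the proteins, through cleavage, phosphorylation, and turnover, which RNA does not show.

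No gene of the family passed the test for DCA against vehicle. With edgeR's quasi-likelihood test and Benjamini-Hochberg adjustment over the 11184 genes tested, 0 of the 9 had an adjusted p under 0.05, and the same was true of 0% of all genes. DESeq2 called 128 genes, 1.14% of those tested, and 0 of the 9. At an unadjusted p under 0.05 there were also 0 of the 9 with edgeR, where 4.27% of all genes tested (478 genes) were found. The unadjusted p ran from 0.112 for *Pmaip1* to 0.992 for *Bbc3*, and the adjusted p was 0.999 for each of the 9. The median log2 fold change over the 9 genes was 0.076, beside 0.0080 over all genes tested. The 2 treatments did not overlap for *Bid*, higher in both DCA libraries, and for *Pmaip1*, lower in both. Among all genes tested, 18.6% were higher in both DCA libraries and 14.7% were lower in both, so 1 of 9 in each direction is close to or below the background. With 2 libraries against 2, an exact two-sided permutation test cannot go below p = 0.333.

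**Figure D1:**
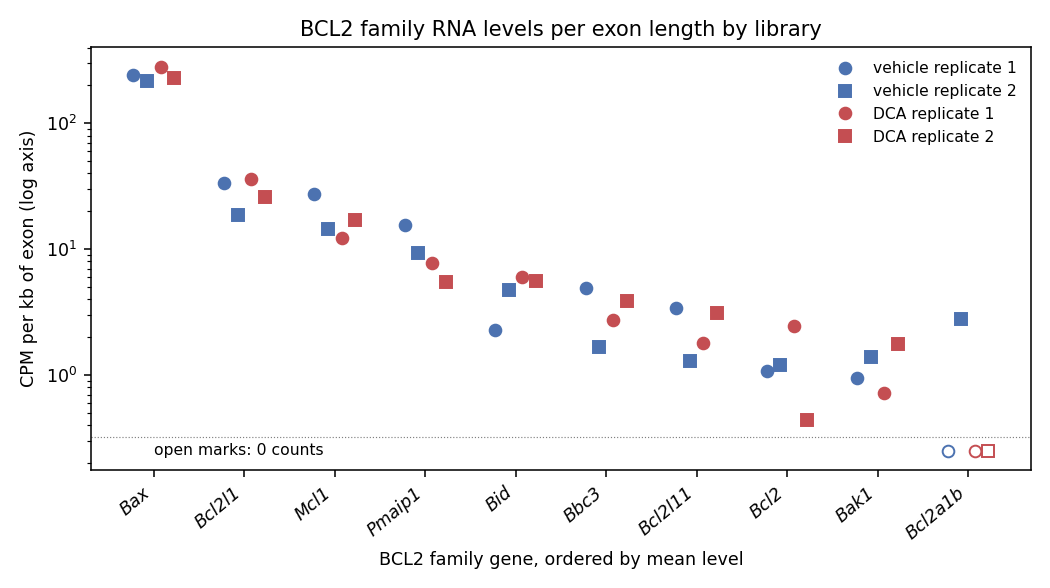
CPM per kilobase of exon (log axis) for the 10 BCL2 family genes in each of the 4 libraries, with open marks below the dotted line for libraries with 0 counts. *Bax* stands alone at the top, at 215 to 283 CPM per kb, while *Bcl2* and *Bak1* lie at or under 2.47 CPM per kb in every library.

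To compare genes with each other, levels were divided by each gene's exon length, taken over all its transcripts in GENCODE M21. The annotation used for counting is not given, so levels, shares and ratios between genes depend on this choice of length. In RefSeq the *Bcl2l1* gene is wider than in GENCODE, from 152758732 to 152833803. On the scale of CPM per kilobase (kb), *Bax* led in all 4 libraries, followed by *Bcl2l1* and *Mcl1* in every library. *Bax* was at 244 and 215 CPM per kb with vehicle and at 283 and 230 CPM per kb with DCA. *Bcl2l1* was at 33.4 and 18.8 CPM per kb with vehicle and at 36.3 and 26.2 CPM per kb with DCA. *Bax* was thus 7.31 to 11.4 times *Bcl2l1* in each library, and its range did not touch that of *Bcl2l1*. All other neighbors in the order overlapped in their ranges over the 4 libraries. By mean level per kb the order went on with *Mcl1* at 17.8, *Pmaip1* at 9.53, *Bid* at 4.66, *Bbc3* at 3.32, *Bcl2l11* at 2.40, *Bcl2* at 1.30, *Bak1* at 1.21, and *Bcl2a1b* at 0.702 CPM per kb.

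*Bcl2l1* encodes BCL-XL and was the most abundant pro-survival RNA. The gene lies on the GRCm38 assembly (the mm10 build of the reads) on chromosome 2 from 152780668 to 152831728, minus strand. *Bcl2l1* had 5605 and 2258 counts in the vehicle libraries against 5381 and 28919 after DCA. Scaled to library size it was at 153 and 86.3 CPM in the vehicle libraries against 167 and 120 CPM after DCA. Vehicle replicate 2 was the lowest library and DCA replicate 1 the highest, with vehicle replicate 1 between the DCA libraries, so the treatments overlapped. Its log2 fold change was 0.26 (standard error 0.47 on log2(CPM + 1)), with an unadjusted p of 0.492 in edgeR's quasi-likelihood test. The 95% interval from limma on log2(CPM + 1) ran from -0.48 to 1.07. The fold change came to 0.71 without vehicle replicate 1 and to -0.095 without vehicle replicate 2.

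*Mcl1* encodes a short-lived guard protein of the same class, and lies on chromosome 3 from 95658788 to 95663176, plus strand. Its counts were 3408 and 1304 with vehicle and 1353 and 14038 with DCA. It was at 93.2 and 49.8 CPM in the vehicle libraries against 41.9 and 58.4 CPM after DCA, so vehicle replicate 1 stood apart above the other 3 libraries. The log2 fold change of *Mcl1* was -0.51 (standard error 0.50), its unadjusted p in edgeR came to 0.255, and limma's 95% interval ran from -1.37 to 0.46. Without vehicle replicate 1 the value was -0.017, and without vehicle replicate 2 it was -0.89, with an unadjusted p of 0.0421 (adjusted p of 0.439) in that edgeR fit, in which the lone vehicle library is taken to vary as the DCA libraries do.

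*Bcl2*, the founding member, lies on chromosome 1 from 106538178 to 106714274, minus strand. *Bcl2* had 360 and 289 counts in the vehicle libraries against 732 and 960 after DCA, which is 9.85 and 11.04 CPM in the vehicle libraries against 22.7 and 3.99 CPM after DCA. The vehicle libraries sat close together, between the high DCA replicate 1 and the low DCA replicate 2, which differed 5.67-fold. This was more than counting error, since exact 95% Poisson intervals were 21.0 to 24.4 CPM in DCA replicate 1 and 3.74 to 4.25 CPM in DCA replicate 2. Such intervals cover counting only, because PCR copies were not marked and reads are not separate molecules. The log2 fold change of *Bcl2* was 0.35 (standard error 1.12) with an unadjusted p of 0.719 in edgeR's quasi-likelihood test, and leaving out DCA replicate 1 gave -1.39 and leaving out DCA replicate 2 gave 1.12.

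The A1 genes lie in several copies on chromosome 9, and *Bcl2a1b* is on the plus strand from 89199209 to 89207827. *Bcl2a1b* had 60 counts in vehicle replicate 2, which is 2.29 CPM, and 0 in the other 3 libraries. Taking 3 counts as the limit for a count of 0, a one-sided limit for counting error only, the level there could reach 0.0821 CPM in vehicle replicate 1, 0.0929 CPM in DCA replicate 1, and 0.0125 CPM in DCA replicate 2. Counts on the other copies were as uneven. *Bcl2a1d* had 129 counts in vehicle replicate 2 and 78 in DCA replicate 1, *Bcl2a1a* had 29 in DCA replicate 2, *Bcl2a1c* had none, and all other libraries of these 3 genes were at 0. Summed over the 4 rows there were 0 and 189 counts in the vehicle libraries against 78 and 29 after DCA. That is 0 and 7.22 CPM with vehicle against 2.41 and 0.121 CPM with DCA. The sum had a log2 fold change of -1.52 and an unadjusted p of 0.607 in edgeR's quasi-likelihood test.

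The copies are shown because a read cannot always be given to one of them, and how such reads were counted is not given in the sources used here. These are coding bases 1 to 90, written 5′ to 3′ on the coding strand, from GENCODE M21 transcripts on GRCm38, with capitals for a base unlike that of both other copies (*Bcl2a1a* at chromosome 9, 88956900 to 88962419, and *Bcl2a1d* at chromosome 9, 88723285 to 88731914).
Bcl2a1a: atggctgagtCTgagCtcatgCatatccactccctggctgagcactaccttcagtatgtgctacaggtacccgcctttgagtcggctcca
Bcl2a1b: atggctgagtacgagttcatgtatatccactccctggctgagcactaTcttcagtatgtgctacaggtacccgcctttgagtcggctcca
Bcl2a1d: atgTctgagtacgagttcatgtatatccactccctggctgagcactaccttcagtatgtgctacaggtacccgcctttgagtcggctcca
This stretch holds 6 of the 12 positions at which the 3 copies differ among their 516 coding bases. Over the whole transcripts, *Bcl2a1b* and *Bcl2a1d* differed at 7 of 817 aligned bases, an identity of 99.1%, and *Bcl2a1b* and *Bcl2a1a* at 15 of 817. Of all windows of 75 bases in the *Bcl2a1b* transcript, 43.5% also occurred letter for letter in another copy, and 14.2% of windows of 150 bases did. A further annotated gene, Gm29094, covers 49.1% of the *Bcl2a1b* exon bases on the same strand. The levels of the single A1 genes are therefore uncertain.

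**Figure D2:**
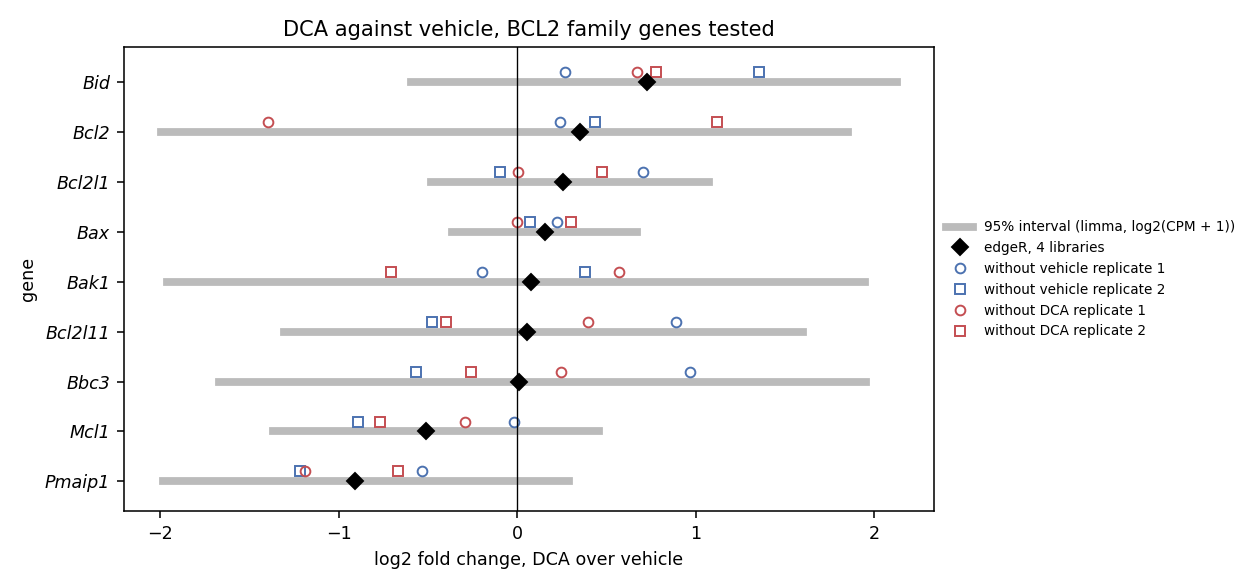
Log2 fold change of DCA over vehicle for the 9 genes tested, from edgeR with all 4 libraries (diamonds) and with 1 library left out (open marks), and the 95% interval from limma (bars). Each bar includes 0, and the open marks fall on both sides of 0 for 6 of the genes, all but *Pmaip1*, *Mcl1*, and *Bid*.

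*Bax* was the family's most abundant RNA, and varied little from library to library. It lies on chromosome 7 from 45461697 to 45466898, minus strand. *Bax* had 14074 and 8883 counts in the vehicle libraries against 14393 and 87239 after DCA. That gives 385 and 339 CPM in the vehicle libraries against 446 and 363 CPM after DCA, so the libraries of the 2 treatments interleaved. Its mean was 362 ± 32.2 CPM (SD, n = 2 libraries) with vehicle and 404 ± 58.5 CPM (SD, n = 2) with DCA. *Bax* had a log2 fold change of 0.16 (standard error 0.17), with an unadjusted p of 0.503 in edgeR's quasi-likelihood test. Limma's 95% interval, from -0.37 to 0.67, was the narrowest among the 9 genes.

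*Bak1* encodes the other pore-forming effector, BAK, and lies on chromosome 17 from 27019810 to 27029009, minus strand. Its counts were low, at 84 and 88 with vehicle and 56 and 1016 with DCA. It was at 2.30 and 3.36 CPM in the vehicle libraries against 1.73 and 4.23 CPM after DCA. The DCA libraries were the lowest and the highest of the 4. The log2 fold change of *Bak1* was 0.076 (standard error 0.51) with an unadjusted p of 0.962 in edgeR's quasi-likelihood test, and limma's 95% interval was wide, from -1.96 to 1.95. Per kb, *Bax* was between 131 and 393 times *Bak1* within a library.

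*Pmaip1*, which encodes the MCL1-binding protein NOXA, had the smallest unadjusted p of the family. It lies on chromosome 18 from 66458533 to 66465565, plus strand. *Pmaip1* had 1543 and 672 counts in the vehicle libraries against 690 and 3584 after DCA, or 42.2 and 25.7 CPM in the vehicle libraries against 21.4 and 14.9 CPM after DCA. Both DCA libraries were below both vehicle libraries, and DCA replicate 1 lay nearer to vehicle replicate 2 than the vehicle libraries lay to each other. Its mean was 33.9 ± 11.7 CPM (SD, n = 2) with vehicle and 18.1 ± 4.56 CPM (SD, n = 2) with DCA. The log2 fold change was -0.91 (standard error 0.43), with an unadjusted p of 0.112 in edgeR's quasi-likelihood test, a two-sided exact permutation p of 0.333, and a limma interval from -1.99 to 0.29. It was -0.53 without vehicle replicate 1 and -1.22 without vehicle replicate 2, where the unadjusted p was 0.0365 and the adjusted p 0.425 in edgeR's fit. Across the other alternatives that kept all libraries the value stayed between -0.95 and -0.85. *Cd68* was also lower in both DCA libraries, as were 14.7% of all genes tested. The macrophage and monocyte genes *Lyz2* and *Csf1r* had at most 2 counts in any library. A link between *Cd68* and *Pmaip1* was not tested. In bulk RNA, fewer cells of a type and less RNA per cell cannot be told apart.

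*Bid* encodes the BH3-only protein that caspase-8 cleaves, linking death receptors to mitochondria. It lies on chromosome 6 from 120891930 to 120916853, minus strand. *Bid* had 295 and 440 counts in the vehicle libraries against 688 and 4798 after DCA, which is 8.07 and 16.8 CPM in the vehicle libraries against 21.3 and 20.0 CPM after DCA. The DCA pair lay close together above the vehicle pair, and the vehicle libraries differed 2.08-fold. The log2 fold change was 0.73 (standard error 0.49), with an unadjusted p of 0.276 in edgeR's quasi-likelihood test, an exact permutation p of 0.333, and a limma interval from -0.60 to 2.13. Its size rested on vehicle replicate 1, since it was 0.27 without that library and 1.36 without vehicle replicate 2. *Bcl2l13*, another family gene on the opposite strand, shares 628 bases with the *Bid* exons, 17.7% of them, and reads there cannot be told apart without strand. *Bcl2l13* was at 53.2 and 6.34 CPM in the vehicle libraries against 23.5 and 12.7 CPM after DCA. Any effect of the overlap on the *Bid* counts was not tested.

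*Bcl2l11* encodes BIM, the BH3-only protein known for killing lymphocytes that lose cytokine support. The gene is on chromosome 2 from 128126038 to 128162547, plus strand. It had 1001 and 272 counts in the vehicle libraries against 463 and 5975 after DCA. It was at 27.4 and 10.4 CPM in the vehicle libraries against 14.3 and 24.9 CPM after DCA, so the DCA libraries lay inside the vehicle range. *Bcl2l11* had a log2 fold change of 0.053 (standard error 0.76), with an unadjusted p of 0.939 in edgeR's quasi-likelihood test and a limma interval from -1.31 to 1.5997.

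*Bbc3* encodes PUMA, a target of p53, and lies on chromosome 7 from 16308393 to 16318205, plus strand. *Bbc3* had 383 and 93 counts in the vehicle libraries against 189 and 1992 after DCA, or 10.5 and 3.55 CPM in the vehicle libraries against 5.85 and 8.29 CPM after DCA. As for *Bcl2l11*, both DCA libraries fell between the vehicle libraries, with vehicle replicate 1 on top and vehicle replicate 2 at the bottom. Its log2 fold change was 0.011 (standard error 0.70), with an unadjusted p of 0.992 in edgeR's quasi-likelihood test. Without vehicle replicate 1 the fold changes of *Bcl2l11* and *Bbc3* were 0.89 and 0.97, and without vehicle replicate 2 they were -0.48 and -0.56.

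The vehicle libraries thus differed for several members. The higher of the 2 was 2.95 times the lower for *Bbc3*, 2.63 times for *Bcl2l11*, 1.87 times for *Mcl1*, 1.78 times for *Bcl2l1*, and 1.64 times for *Pmaip1*, with vehicle replicate 1 above vehicle replicate 2 in all 5. *Bid* differed the other way. The DCA libraries differed most for *Bcl2*, and 2.44-fold for *Bak1*, with 56 counts in DCA replicate 1 and 1016 in DCA replicate 2. The exact 95% Poisson intervals of *Bak1*, for counting only, were 1.31 to 2.25 CPM and 3.97 to 4.49 CPM in these libraries. Other genes annotated over member exons were checked as well. On the opposite strand, D630008O14Rik, which shares 558 bases with the *Bcl2* exons, had 0 counts in all libraries. *Ggnbp1*, on the strand opposite *Bak1* and overlapping it, had 16 and 0 counts in the vehicle libraries against 34 and 553 after DCA. Scaled to library size, *Ggnbp1* was at 0.438 and 0 CPM with vehicle against 1.05 and 2.30 CPM with DCA. On the same strand, Gm45808 covers 12.2% of the *Bax* exon bases.

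**Figure D3:**
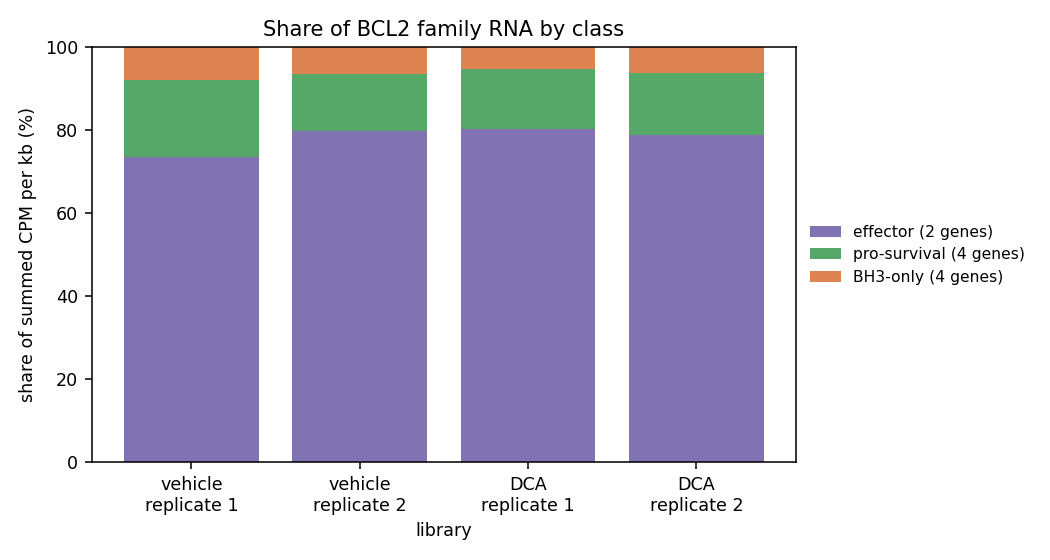
Share of the summed CPM per kb of the 10 genes taken by effectors, pro-survival genes, and BH3-only genes in each library (bars, in %). Effectors, almost all of it *Bax*, take 73.6% to 80.3% in every library.

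Summed per exon length, the 3 classes kept similar shares of the family's RNA in every library. The 2 effector genes took 73.6% and 79.9% with vehicle and 80.3% and 79.0% with DCA. The 4 pro-survival genes took 18.5% and 13.8% with vehicle and 14.5% and 14.9% with DCA. The 4 BH3-only genes took 7.83% and 6.30% with vehicle and 5.20% and 6.15% with DCA. Effector and pro-survival shares overlapped between treatments. The BH3-only share was lower in both DCA libraries, where DCA replicate 2 lay close to vehicle replicate 2. Class shares were not tested, and with 2 libraries against 2 an exact two-sided permutation p cannot go below 0.333. *Pmaip1* was the largest BH3-only share with vehicle, at 4.64% and 3.46% of the family, and was at 2.22% and 1.86% with DCA. *Bid* was at 0.682% and 1.75% with vehicle and at 1.70% and 1.91% with DCA.

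**Figure D4:**
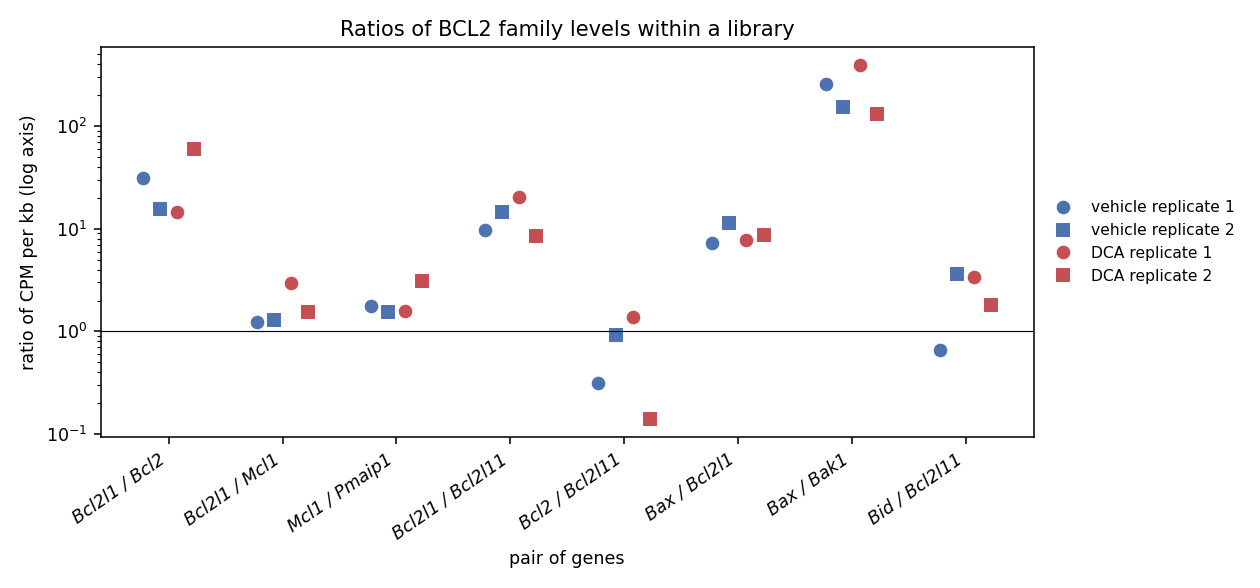
Ratio of CPM per kb between pairs of family genes within each library (log axis), free of library scaling. Of the 8 pairs, only *Bcl2l1* over *Mcl1* separates the treatments, at 1.23 and 1.29 with vehicle and at 2.96 and 1.54 with DCA. Pairs were chosen after levels had been seen and were not tested.

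Ratios within a library do not depend on how libraries are scaled, and 8 pairs were chosen after levels had been seen. *Bcl2l1* exceeded *Mcl1* per kb in every library, 1.23 and 1.29 times with vehicle and 2.96 and 1.54 times with DCA. It was the only pair of the 8 whose treatments did not overlap. Ratios were not tested, and with 2 libraries against 2 an exact two-sided permutation p cannot go below 0.333. *Mcl1* was 1.77 and 1.55 times its partner *Pmaip1* with vehicle and 1.57 and 3.13 times with DCA. The ratio of *Bcl2* to *Bcl2l11* was 0.315 and 0.932 with vehicle and 1.39 and 0.141 with DCA, the widest spread between DCA libraries. *Bcl2l1* was 9.80 and 14.5 times *Bcl2l11* with vehicle and 20.3 and 8.47 times with DCA. For the last 3 pairs the DCA libraries did not separate from vehicle.

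The wider pathway was read from 7 lists of 63 genes in all, of which 55 were tested. In edgeR's quasi-likelihood test 0 of the 55 had an adjusted p under 0.05. At an unadjusted p under 0.05, 1 was higher and 1 lower with DCA, where 2.54% of all genes tested were higher and 1.73% lower at that p. The median log2 fold change over the 55 was -0.096, and the treatments did not overlap for 15 that were higher with DCA and 5 that were lower. Over all genes tested these shares were 18.6% and 14.7%, and the lists, chosen with results known, are described and not tested against them.

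**Figure D5:**
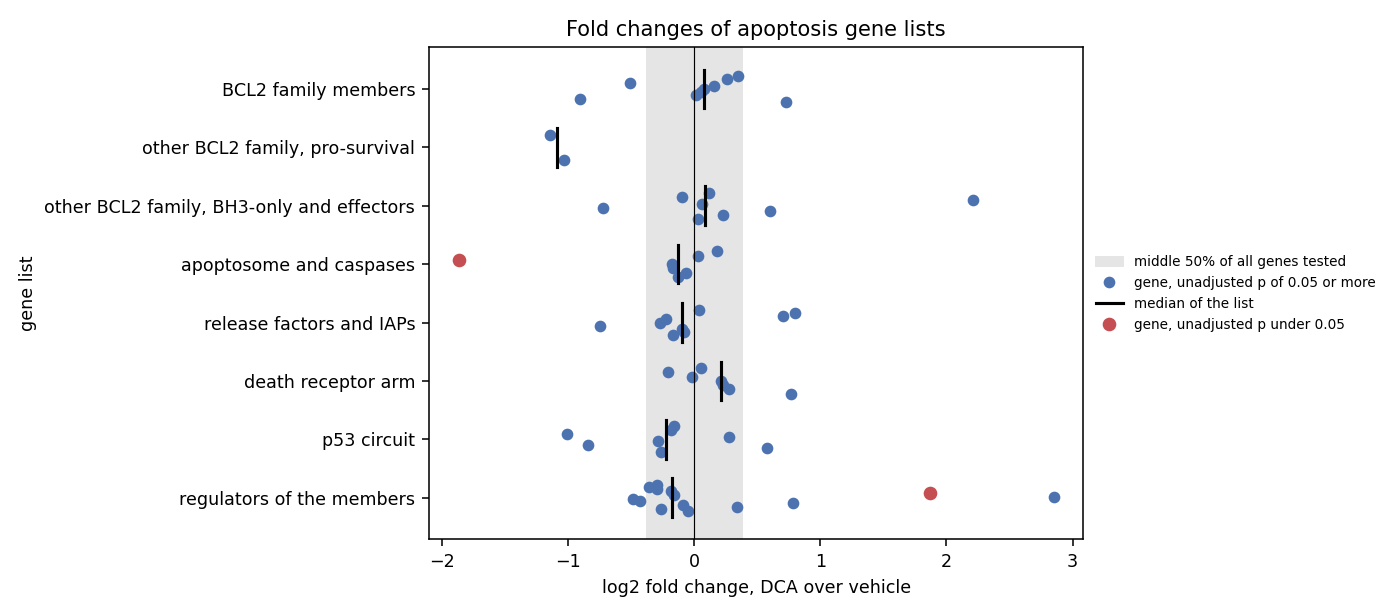
Log2 fold change of DCA over vehicle for each gene tested in the family and in 7 apoptosis lists, with list medians (black lines) and the middle 50% of all genes tested (grey band, -0.37 to 0.38). *Casp9* on the left and *Ddit3* on the right are the only plotted genes with an unadjusted p under 0.05.

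Among the other pro-survival genes 2 of 5 were tested. *Bcl2l2*, which encodes BCL-W, was at 23.9 and 8.67 CPM in the vehicle libraries against 9.94 and 4.81 CPM after DCA, with a log2 fold change of -1.14 and an unadjusted p of 0.211 in edgeR's test. Leaving out vehicle replicate 1 took the *Bcl2l2* value to -0.26 and leaving out vehicle replicate 2 to -1.70, and it was -1.75 when DCA replicate 1 was dropped and -0.71 when DCA replicate 2 was. *Bcl2a1d* had a log2 fold change of -1.04 that was -0.026 without DCA replicate 2 and rested on the uneven counts given above, and *Bcl2l10* and *Bcl2a1c* had no counts. Of the 11 other BH3-only, effector-like, and related genes 8 were tested, with a median of 0.089. *Bmf* and *Bcl2l14* had no counts in any library. *Hrk* had 4 counts (0.11 CPM) in vehicle replicate 1, 55 (0.23 CPM) in DCA replicate 2, and none elsewhere. *Bad*, whose product is switched off by phosphorylation under cytokine signals, was at 58.6 and 58.5 CPM in the vehicle libraries against 59.9 and 67.1 CPM after DCA. The smallest unadjusted p in the group, from edgeR, were those of *Bnip3* (0.292), *Bok* (0.360), and *Bcl2l12* (0.449), each higher in both DCA libraries. With *Bad*, 4 of the 8 tested were higher in both, as were 18.6% of all genes tested. *Bok* had 0 counts in vehicle replicate 2, and its log2 fold change of 2.21 was 1.21 without that library. It was 12.2 without vehicle replicate 1, where the vehicle library left had 0 counts.

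Downstream of the pores, 7 of 7 apoptosome and caspase genes were tested. *Casp9*, the initiator caspase that cytochrome c and APAF1 activate, was at 34.5 and 50.4 CPM in the vehicle libraries against 16.2 and 7.13 CPM after DCA. Both DCA libraries were below both vehicle libraries. Its log2 fold change was -1.87 (standard error 0.60), with an unadjusted p of 0.0154 (adjusted p of 0.999) in edgeR, and the adjusted p was 0.165 to 1 over the alternatives with all libraries. With each library left out the value ran from -2.58 to -1.39, the latter without DCA replicate 2. The other 6 genes of the list overlapped between treatments. *Cycs*, for cytochrome c, was at 733 and 918 CPM in the vehicle libraries against 758 and 929 CPM after DCA, and *Apaf1* had a log2 fold change of 0.18.

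All 9 release factor and inhibitor of apoptosis (IAP) genes were tested, with a median of -0.10. *Htra2*, a mitochondrial protease that opposes IAPs once released, was at 20.8 and 15.0 CPM with vehicle and at 31.2 CPM in both DCA libraries, for a log2 change of 0.80 (unadjusted p = 0.124 in edgeR). *Birc2*, for the inhibitor cIAP1, had a log2 fold change of -0.75 (unadjusted p = 0.207), and *Endog* one of 0.71 (unadjusted p = 0.453), with overlapping libraries in both. *Birc2* was at -0.071 without vehicle replicate 1, and *Endog* at 0.011 without DCA replicate 1. In the death receptor arm 7 of 9 genes were tested, with a median of 0.22, and 4 of them were higher in both DCA libraries, as were 18.6% of all genes tested. *Tnfrsf10b*, the mouse receptor for the death ligand TRAIL, was at 15.5 and 17.0 CPM in the vehicle libraries against 24.2 and 31.2 CPM after DCA, for a log2 change of 0.77 (unadjusted p = 0.153). *Casp8*, which cleaves BID, had a log2 fold change of 0.23 (unadjusted p = 0.360), and its inhibitor *Cflar* one of 0.27 (unadjusted p = 0.480). Leaving out DCA replicate 1 took *Casp8* to 0.013, and leaving out DCA replicate 2 took *Cflar* to 0.072. *Fasl* and *Tnfrsf1a* were under the filter.

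In the p53 circuit 8 of 8 genes were tested, with a median of -0.23. *Trp53* was at 130 and 159 CPM in the vehicle libraries against 147 and 111 CPM after DCA. *Sesn1*, a p53 target, had a log2 fold change of -0.85 (unadjusted p = 0.0793 in edgeR), *Mdm4*, a p53 inhibitor, one of -1.004 (unadjusted p = 0.101), and *Cdkn1a*, the p53 target that halts the cell cycle, one of 0.28 (unadjusted p = 0.300). Both DCA libraries were below both vehicle libraries for *Sesn1* and *Mdm4* and above them for *Cdkn1a*. Without vehicle replicate 1, *Mdm4* was at -0.33 and *Cdkn1a* at 0.069, and without vehicle replicate 2, *Sesn1* was at -0.34. Of the 14 regulators of the family all were tested, with a median of -0.17. *Ddit3*, for the stress factor CHOP, which can act on *Bcl2*, *Bcl2l11*, and *Bbc3*, was at 8.97 and 9.90 CPM in the vehicle libraries against 25.2 and 43.7 CPM after DCA, for a log2 change of 1.87 (unadjusted p = 0.0113, adjusted p = 0.999 in edgeR). Its adjusted p was 0.165 to 1 over the alternatives with all libraries. With each library left out the *Ddit3* value ran from 1.42, without DCA replicate 2, to 2.21, without DCA replicate 1. *Trib3*, a target of CHOP, had 178 and 0 counts in the vehicle libraries against 657 and 3593 after DCA. That is 4.87 and 0 CPM with vehicle against 20.3 and 14.9 CPM with DCA. The log2 fold change of *Trib3* was 2.85 (unadjusted p = 0.181 in edgeR). It was 1.86 without vehicle replicate 2. Without vehicle replicate 1 the adjusted p in edgeR's fit was 0.0469, with the vehicle library left at 0 counts. *Dynll1*, a light chain that binds BIM, had a log2 fold change of 0.34 (unadjusted p = 0.169), which was 0.21 without vehicle replicate 1.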

How the data were processed

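ILC2 RNA was made into full-length cDNA with a SMART-Seq HT kit, which does not keep strand, and sequenced as paired reads. Per the labels, reads were trimmed by the authors (cutadapt 1.9) and mapped to mm10 (HISAT2 2.2.1), and the methods name DESeq2. The deposited values are whole-number counts per gene, not normalized, despite a name that points to FPKM. The counting tool, its annotation and its strand setting are not given in the sources used here.

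Counts were scaled to CPM by TMM and tested with edgeR 4.0.16 (quasi-likelihood, two-sided) in R 4.3.3, for 11184 genes averaging 1 CPM or more. Rows without a symbol (1275) were kept under their identifiers. Standard errors are those of log2(CPM + 1), and intervals come from limma 3.58.1 on that scale. Exon lengths, positions and transcripts are from GENCODE M21 on GRCm38, in which all 10 genes matched by Entrez identifier. The fit was also run on simulated counts, whose outcome is not given here. What changes it can find at the spread of these libraries is therefore not shown. DESeq2 1.42.0, limma, other scalings and filters, thinning of DCA replicate 2 to 32100082 counts, the replicate number as a block, summing the *Bcl2a1* rows, and leaving out each library were the alternatives.

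Members and lists were chosen with earlier results of these data known. Named beyond the 10 genes are the other *Bcl2a1* rows and, per list, genes with an unadjusted p under 0.05 and the 3 with the smallest p, of which 1 is not reported here. *Bad*, *Bcl2l13*, *Cycs*, *Trp53*, *Hrk*, the genes annotated over members, genes under the filter, and all within-library ratios and class shares were named or chosen after values had been seen. Likeness of patterns was not ranked, since 4 libraries are too few.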

Additional observations from a re-analysis of the deposited data

How the results depend on the processing

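At an adjusted p under 0.05 edgeR found 0 genes with all libraries and the filter. Dropping the filter gave 36 of 17706 genes, DESeq2 gave 128, and leaving out a library gave 0 to 20, the 20 without vehicle replicate 1. None of the 9 genes of the family tested was among them. Members with an unadjusted p under 0.05, 0 at first, numbered 0 to 2 with a library left out, the 2 being *Mcl1* and *Pmaip1* without vehicle replicate 2. Whether same-numbered libraries share more than a label is not stated. The correlation of their deviations was 0.0197, which with so few libraries cannot show whether they were paired. With the replicate block the log2 fold change was -0.13 for *Bcl2* and -0.037 for *Bak1*, 0 genes had an adjusted p under 0.05, and 450 had an unadjusted p under 0.05.

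Fold changes of *Bcl2*, *Bak1*, and *Bbc3* changed sign in further settings. *Bcl2* was at -0.073 with limma, *Bak1* at -0.0051 with limma and -0.024 with DCA replicate 2 thinned, and *Bbc3* at -0.016 with median-of-ratios scaling, -0.014 with total-count scaling and -0.016 with DESeq2. When single libraries were left out, values ran from -1.39 to 1.12 for *Bcl2*, -0.70 to 0.57 for *Bak1*, -0.56 to 0.97 for *Bbc3*, -0.48 to 0.89 for *Bcl2l11*, -0.095 to 0.71 for *Bcl2l1*, -0.0015 to 0.30 for *Bax*, and -0.11 to 0.50 for *Apaf1*. *Mcl1*, *Pmaip1*, and *Bid* kept their direction under every alternative run. The lone library of a treatment was then assumed to vary like the others. *Bak1* was below the filter at a mean of 5 CPM. The cause of these changes was not tested.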
